A study of Mus musculus with 15 samples.

Results

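Fap, Postn, Tnc, Fn1, Sparc, Thbs1, Thbs2, Thbs4, Ctgf and Cyr61, 10 matricellular and activated stroma genes, were followed across 3 sorted cell populations of mouse melanoma. The set is fixed by gene name, with no threshold on measured values, but was drawn up with earlier results of these data known, and holds 10 of the 53465 genes in the table. All 10 had a mean of at least 5 normalized counts and entered the test with 25549 genes in total. Normalized counts are reads per gene divided by the size factor that the authors estimated for each library.

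Matricellular proteins are secreted into the matrix, where they act mainly as signals to cells and less as load-bearing structure. They bind integrins and other surface receptors, hold growth factors, and are low in most resting adult tissue but strongly made in wounds, in fibrosis and in the stroma of tumors. Periostin, tenascin-C, SPARC, the thrombospondins and the CCN proteins CTGF and CYR61 belong to this class. Fibronectin is a structural glycoprotein of the provisional matrix, and fibroblast activation protein is a membrane-bound serine protease that marks activated fibroblasts. In vessels, thrombospondin-1 and thrombospondin-2 are known as inhibitors of angiogenesis and the CCN proteins as products of YAP and TEAD activity.

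The libraries were made from cells that the study placed in an endothelial hierarchy. Endovascular progenitors (EVP) were gated as CD31 low and VEGFR2 low, transit amplifying cells (TA) as CD31 intermediate and VEGFR2 low, and definitive differentiated cells (D) as CD31 high and VEGFR2 high, all from the lineage negative, CD34 positive fraction. B16-F0 melanoma cells, a line from a pigmented mouse tumor, were grown under the skin of adult CAG-GFP mice of both sexes, which carry GFP in all cells under a ubiquitous promoter, and GFP positive host cells were sorted on day 15. Each population has 5 libraries with no treatment. The labels do not say whether libraries with the same number share an animal or whether animals were pooled, so p-values measure the spread between these libraries only.

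The libraries held from 5394356 to 26513073 reads on genes, with a median of 19049194. The libraries numbered 1 had the fewest reads in each population, and 8.50% to 10.6% of their reads fell on the repeat-derived gene Gm10800, against at most 0.701% in the others. The summed level of 10 endothelial markers ran from 2385 to 4279 normalized counts in EVP, from 5979 to 72865 in TA and from 103119 to 163172 in D. The summed level of 10 fibroblast markers ran the opposite way, from 858197 to 1524910.5 in EVP, from 196675 to 645856 in TA and from 1362 to 4770.2 in D. Markers thus went with the label in D, whereas EVP had the lowest endothelial and the highest fibroblast sums of the 3 populations. No marker of either list was at 0 in all libraries. Melanoma markers summed to between 29156 and 66912 in EVP, between 68699.5 and 175253 in TA and between 18069.6 and 47749 in D. Populations are named below by their sort labels.

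**Figure D1:**
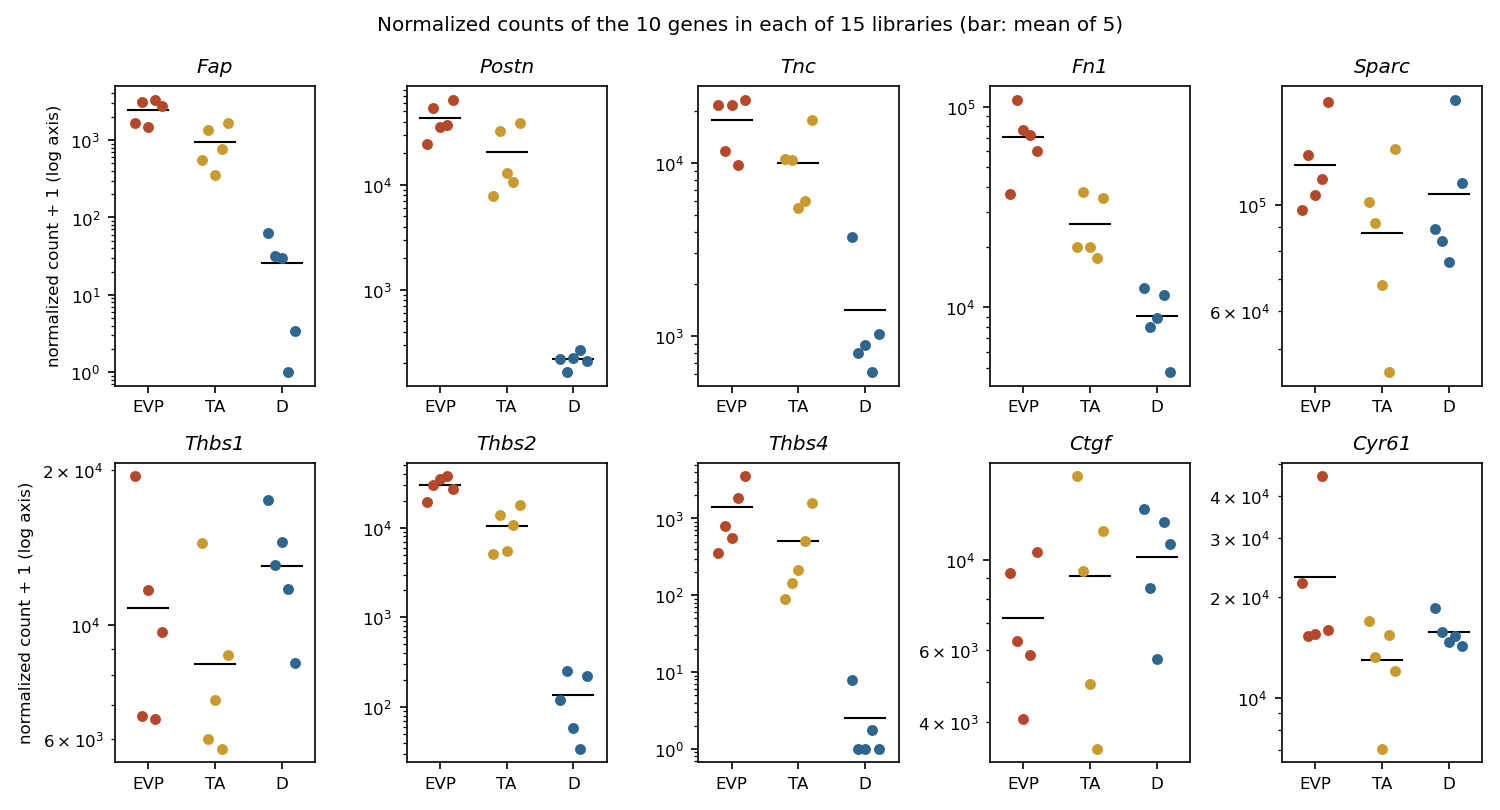
Normalized counts plus 1 of each of the 10 genes on a log axis, with 1 point per library and a bar at the mean of 5 libraries, for EVP, TA and D. Fap, Postn, Thbs2 and Thbs4 lie far lower in D, Tnc and Fn1 less far, and the D points of Sparc, Thbs1, Ctgf and Cyr61 overlap with those of EVP and TA.

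The first comparison asks how EVP, the proposed start of the hierarchy, differed from D, its end. Fap, Postn, Tnc, Fn1, Thbs2 and Thbs4 were higher in EVP than in D, by between 7.79-fold and 937-fold in means, and Sparc, Thbs1, Ctgf and Cyr61 did not pass the test. Thus 6 of 10 members were called, all higher in EVP, where 19.0% of tested genes were called in either direction, 11.6% higher in EVP and 7.46% higher in D. The same 6 members had no overlap between the 5 EVP and the 5 D libraries, which held for 17.7% of tested genes in either direction and for 10.2% higher in EVP. The median log2 fold change of the members was 3.43, against 0.46 over all tested genes. The fibroblast marker sums given above moved in the same direction as these 6 members and the endothelial marker sums in the opposite direction, and their part in the result was not tested. In such bulk libraries fewer cells of a type and less RNA per cell cannot be told apart.

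Fap (ENSMUSG00000000392, GRCm38 chr2:62500943-62574075, minus strand) encodes the fibroblast activation protease. The 5 EVP libraries held 1661, 3079, 1463, 3327 and 2776 normalized counts, the TA libraries 548, 1353, 348, 765 and 1674, and the D libraries 61.8, 31.0, 28.9, 0 and 2.42. EVP libraries 2 and 4 were highest, D libraries 4 and 5 were at or near no read, and no D library came near the lowest EVP or TA library. The means were 2461 ± 847 in EVP and 24.8 ± 25.2 in D (SD, n = 5 each), a 99.1-fold difference, and the fitted log2 fold change was 7.66 (SE 0.86, limma adjusted p = 3.56e-06).

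Postn (ENSMUSG00000027750, chr3:54361109-54391037, plus strand) encodes periostin, which binds integrins and takes part in collagen fiber assembly. EVP libraries held 24434, 53895, 35728, 37099.7 and 64640.0 normalized counts and TA libraries 7784, 32459.7, 13058, 10602 and 38857. In D the values were 217, 163, 224, 267 and 212. Postn was thus even within D, where the SD was 17.0% of the mean, and spread most within TA, where libraries 2 and 5 stood inside the EVP range and libraries 1, 3 and 4 below it. Means were 43159 ± 15963 in EVP and 217 ± 36.9 in D (SD, n = 5 each), a 199-fold difference, with a log2 fold change of 7.57 (SE 0.38, limma adjusted p = 3.22e-10).

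Tnc (ENSMUSG00000028364, chr4:63959785-64047015, minus strand) encodes tenascin-C, an extracellular protein of remodeling and tumor stroma. EVP libraries held 21818, 11769, 21635, 9747 and 23288 normalized counts, TA libraries 10566, 10377, 5476, 6031 and 17768, and D libraries 3723, 800.0, 884, 615 and 1021. D library 1 was several times the other D libraries but still below the lowest TA library. The EVP to D ratio of means was 12.5, with a log2 fold change of 3.91 (SE 0.43, limma adjusted p = 2.67e-06).

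Fn1 (ENSMUSG00000026193, chr1:71585520-71653200, minus strand) encodes fibronectin. EVP libraries held 36916, 108509.5, 76722, 72480.1 and 59917 normalized counts, TA libraries 19921, 37592, 19992, 17689 and 35062, and D libraries 12456, 7984, 8852, 11485 and 4749. Fn1 remained well detected in every D library, with a mean of 9105 ± 3049 against 70909 ± 26108 in EVP (SD, n = 5 each), a 7.79-fold difference and the smallest among the 6 called members. The log2 fold change was 2.95 (SE 0.30, limma adjusted p = 1.17e-06).

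Sparc (ENSMUSG00000018593, chr11:55394500-55423183, minus strand) encodes SPARC or osteonectin, a collagen-binding protein that is also made by endothelium. It had the most reads among the 10 genes in all 15 libraries. EVP libraries held 97422, 127007, 104697, 113335 and 163730.5 normalized counts, TA libraries 101549, 91537, 68065, 44685 and 130783, and D libraries 88952, 84075, 75864, 165961 and 110903. The 3 ranges overlapped, and the highest value of all was in D library 4. The log2 fold change of EVP over D was 0.24 with a 95% interval from -0.30 to 0.78 (limma adjusted p = 0.654), below the median of 0.46 over all tested genes. Without EVP library 1 Sparc had 0.31 and that median was 0.0012, so its place relative to the median moved with the libraries used. Under quantile normalization, which moved the median to -0.05, the sign of Sparc turned to -0.39.

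The 3 thrombospondin genes split. Thbs2 and Thbs4 were among the members with the largest differences between EVP and D, while Thbs1 did not pass the test. Thrombospondin-1 and thrombospondin-2 are close relatives that form trimers and bind CD36 and CD47, and thrombospondin-4 is a pentameric form known from tendon and muscle matrix.

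Thbs1 (ENSMUSG00000040152, chr2:118111876-118127133, plus strand) had 19462, 6657, 11682, 6555 and 9683 normalized counts in EVP, 14445, 6003, 7146, 5746 and 8734 in TA, and 17465, 13086, 14488, 11723 and 8449 in D. Library 1 was the highest of each population, and the populations overlapped. The log2 fold change of EVP over D was -0.35 with a 95% interval from -0.98 to 0.28 (limma adjusted p = 0.541).

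Thbs2 (ENSMUSG00000023885, chr17:14665500-14694262, minus strand) had 19258, 29872, 34529, 37636 and 26801 normalized counts in EVP, 5064, 13786, 5510.2, 10617 and 17766 in TA, and 119, 249.8, 57.8, 33.1 and 218 in D. Each EVP library was above each TA library, and each TA library above each D library. The means of 29619 ± 7137 in EVP and 136 ± 95.6 in D (SD, n = 5 each) differed 219-fold, with a log2 fold change of 8.09 (SE 0.48, limma adjusted p = 2.20e-09).

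Thbs4 (ENSMUSG00000021702, chr13:92751590-92794818, minus strand) was the least abundant of the 3 thrombospondins per kilobase of exon in each population. EVP libraries held 351, 799.5, 561, 1865 and 3559 normalized counts, TA libraries 89.6, 143, 211, 515 and 1586, and D libraries 6.86, 0, 0, 0.751 and 0. In EVP and TA libraries 4 and 5 were the highest, and 3 of 5 D libraries had no read. All 5 D libraries together held 6 reads (95% Poisson interval from 2.20 to 13.1, counting error only), so the 937-fold ratio of means rests on very few reads in D. The fitted log2 fold change of 9.22 (SE 0.81, limma adjusted p = 2.17e-07) depends on the added count of 1 and ran from 6.79 to 10.27 over other settings, where the call held each time.

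The balance of Thbs1 and Thbs2 was compared as the log2 ratio within a library, which does not depend on library scaling. The ratio was 0.02, -2.17, -1.56, -2.52 and -1.47 in EVP, 1.51, -1.20, 0.37, -0.89 and -1.02 in TA, and 7.18, 5.71, 7.94, 8.43 and 5.27 in D. Thbs2 thus had more counts than Thbs1 in 4 of 5 EVP libraries and 3 of 5 TA libraries, and Thbs1 had at least 38.7 times the counts of Thbs2 in every D library. Mean ratios were -1.54 ± 0.97 in EVP, -0.24 ± 1.16 in TA and 6.91 ± 1.38 in D (SD, n = 5 each). EVP and D differed by -8.45 and TA and D by -7.15, each with p = 0.00794 in a two-sided exact permutation test, the smallest p that 5 against 5 libraries allow, and 0.0238 after adjustment over 6 ratio comparisons. EVP and TA differed by -1.30 (exact permutation p = 0.0952, adjusted 0.143).

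**Figure D2:**
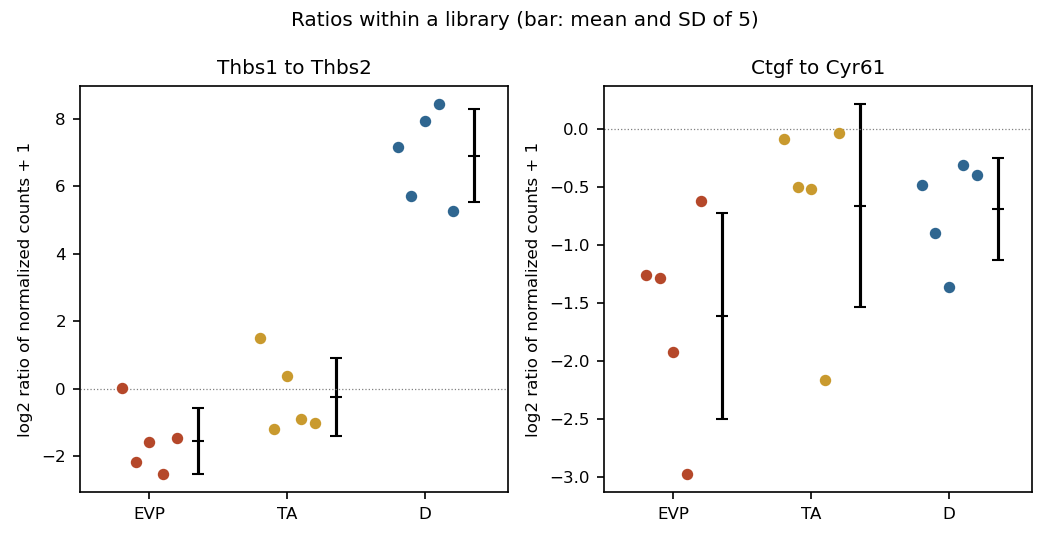
Log2 ratio of Thbs1 to Thbs2 (left) and of Ctgf to Cyr61 (right) within each library, with 1 point per library and the mean with SD of 5 libraries beside the points, for EVP, TA and D. The Thbs1 to Thbs2 ratio is between -2.52 and 1.51 in EVP and TA and between 5.27 and 8.43 in D, while the Ctgf to Cyr61 ratios of the 3 populations overlap.

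The CCN genes Ctgf and Cyr61 encode small cysteine-rich proteins that bind integrins and heparan sulfate. Ctgf (ENSMUSG00000019997, chr10:24595442-24598683, plus strand) had 9252, 6309.8, 4077, 5854 and 10431 normalized counts in EVP, 16028, 9377, 4945, 3438 and 11768 in TA, and 13324, 8518, 5717, 12368 and 10936 in D. Cyr61 (ENSMUSG00000028195, chr3:145646976-145649981, minus strand) had 22081, 15354, 15479, 45951 and 15959 in EVP, 16957, 13256, 7046, 15406 and 12012 in TA, and 18592, 15784, 14703, 15269 and 14330.4 in D. Both genes overlapped between all populations. Cyr61 was even in D, where the SD was 10.7% of the mean, and its highest value by far was in EVP library 4. In EVP against D the log2 fold change was -0.52 for Ctgf, with a 95% interval from -1.30 to 0.26 (limma adjusted p = 0.440). For Cyr61 it was 0.41, with a 95% interval from -0.17 to 0.98 (limma adjusted p = 0.405).

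The log2 ratio of Ctgf to Cyr61 was -1.61 ± 0.89 in EVP, -0.66 ± 0.87 in TA and -0.69 ± 0.44 in D (SD, n = 5 each). It was below 0 in all 15 libraries, so Cyr61 had more counts than Ctgf in each. EVP differed from D by -0.92 (two-sided exact permutation p = 0.0556, adjusted 0.111) and from TA by -0.95 (exact permutation p = 0.143, adjusted 0.171), and TA from D by 0.03 (exact permutation p = 0.968, adjusted 0.968). None of these passed the threshold, also without adjustment.

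EVP library 4, with 45951 normalized counts of Cyr61 against 22081 in the next EVP library, was also the highest of all 15 libraries for the early response genes Fos (47873), Jun (38791), Egr1 (25597) and Atf3 (6765). Without it the log2 fold change of Cyr61 between EVP and D was 0.12, the lowest value over libraries left out in turn. The part of these genes in the Cyr61 value was not tested.

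Promoter sequences of RefSeq (GRCm38.p6) were matched for 6 of the 10 members, Postn, Tnc, Sparc, Thbs2, Thbs4 and Cyr61, the last under its newer symbol Ccn1. The 250 bases before the start are shown for 3 members that were high in EVP and low in D and for Cyr61, which was not, so that both patterns can be compared. The regions are chr3:54360857-54361106 (plus strand) for Postn, chr17:14694263-14694512 (minus strand) for Thbs2, chr13:92794819-92795068 (minus strand) for Thbs4 and chr3:145649986-145650235 (minus strand) for Cyr61. Each is written 5′ to 3′ on the gene's strand, and capitals mark matches to the searched motifs.
Postn: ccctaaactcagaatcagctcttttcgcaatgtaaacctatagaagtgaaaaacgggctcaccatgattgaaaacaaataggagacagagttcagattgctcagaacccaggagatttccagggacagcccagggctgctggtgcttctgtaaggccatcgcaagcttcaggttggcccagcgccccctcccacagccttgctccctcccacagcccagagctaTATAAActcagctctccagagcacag
Thbs2: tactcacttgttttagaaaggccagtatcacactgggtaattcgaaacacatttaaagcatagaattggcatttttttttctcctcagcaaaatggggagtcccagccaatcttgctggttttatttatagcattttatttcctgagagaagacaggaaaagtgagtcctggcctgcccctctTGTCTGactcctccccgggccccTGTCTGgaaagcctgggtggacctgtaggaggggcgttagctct
Thbs4: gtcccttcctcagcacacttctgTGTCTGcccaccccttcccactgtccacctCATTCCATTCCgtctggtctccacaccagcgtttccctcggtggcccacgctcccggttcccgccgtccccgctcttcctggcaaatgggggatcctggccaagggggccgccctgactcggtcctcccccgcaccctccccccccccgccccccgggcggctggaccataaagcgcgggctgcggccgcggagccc
Cyr61: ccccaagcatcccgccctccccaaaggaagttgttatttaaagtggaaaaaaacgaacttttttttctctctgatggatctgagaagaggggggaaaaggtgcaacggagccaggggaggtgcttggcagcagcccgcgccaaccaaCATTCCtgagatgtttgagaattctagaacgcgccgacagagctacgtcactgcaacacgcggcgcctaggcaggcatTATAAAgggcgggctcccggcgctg

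The motifs were GGAATG (bound by TEAD factors), TGANTCA (AP-1), CAGACA (SMAD) and the CArG box, each on both strands, and TATAAA on the gene's strand. In Postn the capitals are a TATAAA at positions -26 to -21 relative to the start. In Thbs2 they are SMAD letters, read as TGTCTG, at -67 to -62 and -44 to -39. In Thbs4 they are a SMAD match at -227 to -222 and a pair of overlapping TEAD matches, read as CATTCC, at -197 to -192 and -192 to -187. In Cyr61 they are a TEAD match at -103 to -98 and a TATAAA at -25 to -20. Of the others, Tnc had a TATAAA at -126 to -121 and Sparc a SMAD match at -36 to -31. Over the same 250 bases of all 32851 promoters, 12.6% held the TEAD letters, 6.75% the AP-1 letters, 17.1% the SMAD letters, 1.47% a CArG box and 7.59% TATAAA. TEAD letters were thus present in a member that differed between EVP and D and in a member that did not pass that test, and a match is no proof of binding.

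The second comparison asks how TA, the intermediate population, differed from D. The same 6 genes, Fap, Postn, Tnc, Fn1, Thbs2 and Thbs4, were higher in TA and none of the 10 was called lower. This gave 6 of 10 members called, where 12.5% of tested genes were called in either direction, 8.21% higher in TA and 4.31% higher in D. In all 6, each TA library was above each D library, which held for 5.56% of tested genes, and a lack of overlap in either direction held for 9.25%. The median log2 fold change was 2.28 for the members and 0.24 over all tested genes. EVP and TA were both compared with the same D libraries, so these results are not independent of the first comparison.

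Markers of several cell types differed between TA and D beside these 6 genes. All 10 fibroblast markers were higher in TA and 7 of 10 endothelial markers were lower. The endothelial count was 3 by edgeR, 8 by DESeq2 and 6 by limma without the 3 libraries numbered 1. Higher in TA were also 5 of 8 mural cell markers, with sums from 4748 to 114799 normalized counts in TA and from 4260.1 to 9637 in D, and 5 of 7 leukocyte markers, with sums from 3147 to 24475 in TA and from 1336 to 2519 in D. All 5 keratinocyte markers were higher in TA, with sums from 2143 to 69435 against 45.9 to 2390.2 in D, and so were all 6 melanoma markers, whose sums are given above. Only 1 of 8 macrophage and 1 of 7 platelet markers were called higher in TA, and none of these was lower. In EVP against D 4 of 5 keratinocyte markers were higher in EVP (1 by edgeR, 2 by DESeq2), with sums from 1375 to 8383 in EVP. Mural cell markers went both ways there, with 3 higher and 2 lower. No marker of these lists was at 0 in all libraries, and their part in the results of the 6 genes was not tested.

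Ratios of TA to D means were 334 for Thbs4, 94.9 for Postn, 77.8 for Thbs2, 37.8 for Fap, 7.13 for Tnc and 2.86 for Fn1. The log2 fold changes were 7.45 (SE 0.81) for Thbs4, 6.29 (SE 0.38) for Postn, 6.47 (SE 0.48) for Thbs2, 6.12 (SE 0.86) for Fap, 3.05 (SE 0.43) for Tnc and 1.52 (SE 0.30) for Fn1, with limma adjusted p between 1.22e-08 for Postn and 0.00237 for Fn1. Thbs1 had a mean of 8415 ± 3571 in TA and 13042 ± 3335 in D (SD, n = 5 each) and a log2 fold change of -0.68 with a 95% interval from -1.31 to -0.05, which did not pass after adjustment (limma adjusted p = 0.171) but did without TA library 1, at -0.90 (limma adjusted p = 0.0447), and without the 3 libraries numbered 1, at -0.78 (limma adjusted p = 0.0449). Sparc (-0.30, 95% interval from -0.84 to 0.24), Ctgf (-0.31, from -1.09 to 0.47) and Cyr61 (-0.34, from -0.92 to 0.24) were not called.

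**Figure D3:**
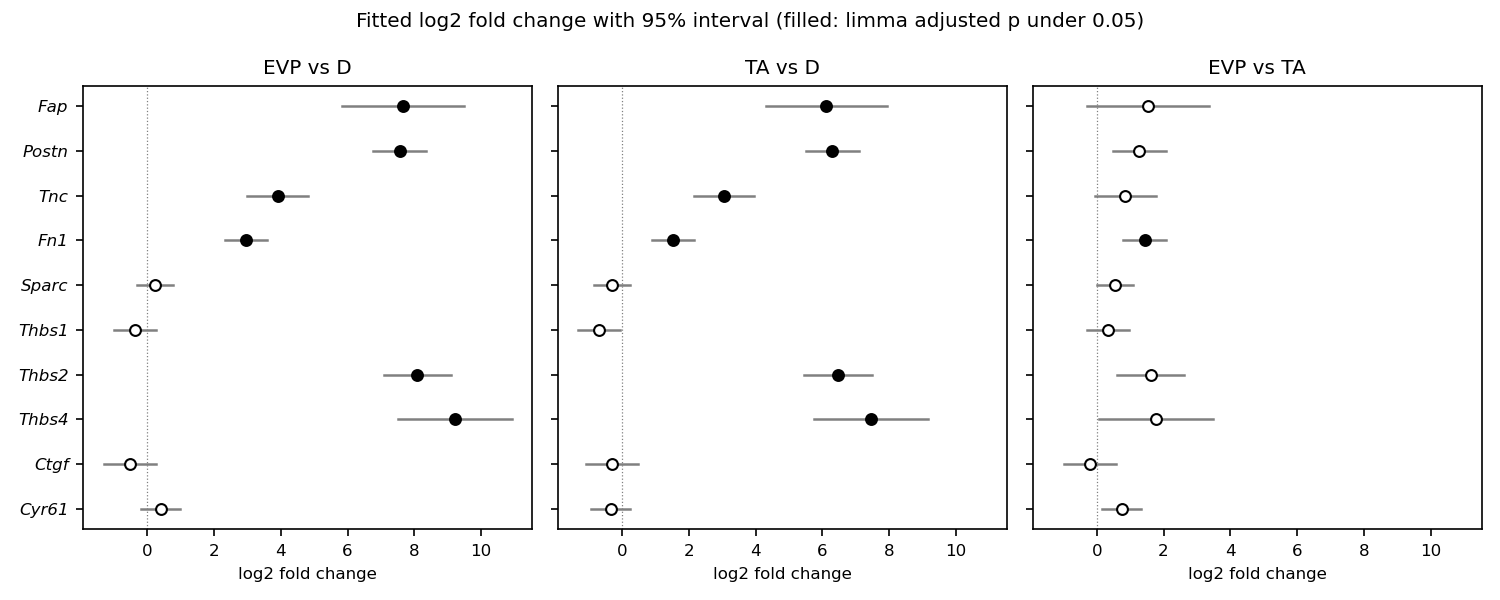
Fitted log2 fold change of each of the 10 genes (horizontal axis, point) with its 95% interval (line) for EVP against D, TA against D and EVP against TA; filled points passed a limma adjusted p of 0.05. The same 6 genes are filled and right of 0 in the first 2 panels, and Fn1 alone is filled in the third.

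The third comparison asks how EVP differed from TA. Fn1 was higher in EVP, with 70909 ± 26108 against 26051 ± 9468 normalized counts (SD, n = 5 each), a 2.72-fold difference, and no other member passed the test. The log2 fold change of Fn1 was 1.43 (SE 0.30, limma adjusted p = 0.0132), and its libraries overlapped, since EVP library 1 (36916) lay below TA library 2 (37592). This is 1 of 10 members, against 3.50% of tested genes called in either direction, 1.56% higher in EVP and 1.94% higher in TA. Without the 3 libraries numbered 1, its log2 fold change was 1.57 and no member was called by limma (adjusted p = 0.0598 for Fn1), with 5 members higher in EVP at an unadjusted p under 0.05, while 6 members were called in EVP against D and 7 in TA against D in that setting. With all libraries, 6 of 10 fibroblast markers were higher in EVP and 8 of 10 endothelial markers in TA. The other way, 1 endothelial marker was higher in EVP at an unadjusted limma p under 0.05, and DESeq2 called 1 higher in EVP. Also higher in TA were 5 of 8 macrophage, 3 of 6 melanoma, 2 of 8 mural cell, 2 of 7 leukocyte and 2 of 7 platelet markers. EdgeR called 3 fibroblast, 9 endothelial, 0 macrophage, 1 melanoma, 2 mural cell, 0 leukocyte and 2 platelet markers. DESeq2 called 8 fibroblast, 9 endothelial, 6 macrophage, 5 melanoma, 5 mural cell, 2 leukocyte and 2 platelet markers in the same directions. Without the libraries numbered 1 limma called none. At an unadjusted limma p under 0.05, 7 fibroblast markers and 1 endothelial marker were then higher in EVP. Higher in TA were 9 endothelial, 6 macrophage, 5 melanoma, 5 mural cell, 4 leukocyte and 3 platelet markers. The part of these markers in the Fn1 result was not tested.

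The other members mostly leaned higher in EVP, as Fn1 did, without passing. Of the 10, 9 had a positive log2 fold change and 6 an unadjusted p under 0.05, and the median was 1.07 against 0.09 over all tested genes. Thbs2 had no overlap between EVP and TA libraries, where 2.70% of tested genes lacked overlap and were higher in EVP and 4.29% lacked it in either direction, with a log2 fold change of 1.62 (95% interval from 0.61 to 2.63, limma adjusted p = 0.0736). Postn had 1.27 (from 0.48 to 2.07, limma adjusted p = 0.0744) and Cyr61 0.74 (from 0.16 to 1.32, limma adjusted p = 0.172). Intervals were wide for Thbs4 (1.77, from 0.07 to 3.47) and Fap (1.54, from -0.28 to 3.36), and Tnc (0.86), Sparc (0.54) and Thbs1 (0.33) had smaller values. Ctgf alone was negative, at -0.21 (from -0.99 to 0.57), and turned to 0.05 without TA library 1.

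Calls in this comparison moved with the setting. Without the 3 libraries numbered 1, 104 of all tested genes were called in EVP against TA, against 893 with all libraries. Thbs2 was called by DESeq2 (1.49, adjusted p = 0.0178) and in a limma fit of EVP and TA libraries only (1.62, adjusted p = 0.0246), but not by edgeR, and Thbs2 and Postn were both called without TA library 5 (1.85 and 1.58, limma adjusted p = 0.0392 and 0.0125). Postn joined Fn1 without TA library 2 (1.51, limma adjusted p = 0.0328) and Thbs2 without D library 4 (1.62, limma adjusted p = 0.0362). TA library 5 had the highest fibroblast (645856) and mural cell (114799) marker sums and the lowest endothelial sum (5979) among the TA libraries.

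The place of each TA library between the EVP mean, set at 0, and the D mean, set at 1, was computed on the log2 scale for the 6 members that differed from D. The mean position was 0.168 for Postn, 0.192 for Thbs4, 0.200 for Thbs2, 0.201 for Fap and 0.220 for Tnc, and 0.486 for Fn1. Fn1 was therefore about midway, and the other 5 were nearer to EVP than to D. TA library 5 was nearest to EVP for Fap (0.0625), Postn (0.00922), Tnc (-0.0251), Thbs2 (0.0865) and Thbs4 (-0.0706), and TA library 2 for Fn1 (0.281). Libraries 1, 3 and 4 lay farther towards D for Postn, Fn1 and Thbs2, with Fn1 at 0.592, 0.590 and 0.650. TA library 1 had the highest endothelial marker sum (72865) and the lowest fibroblast sum (196675) of the TA libraries, and the part of these in the positions was not tested.

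**Figure D4:**
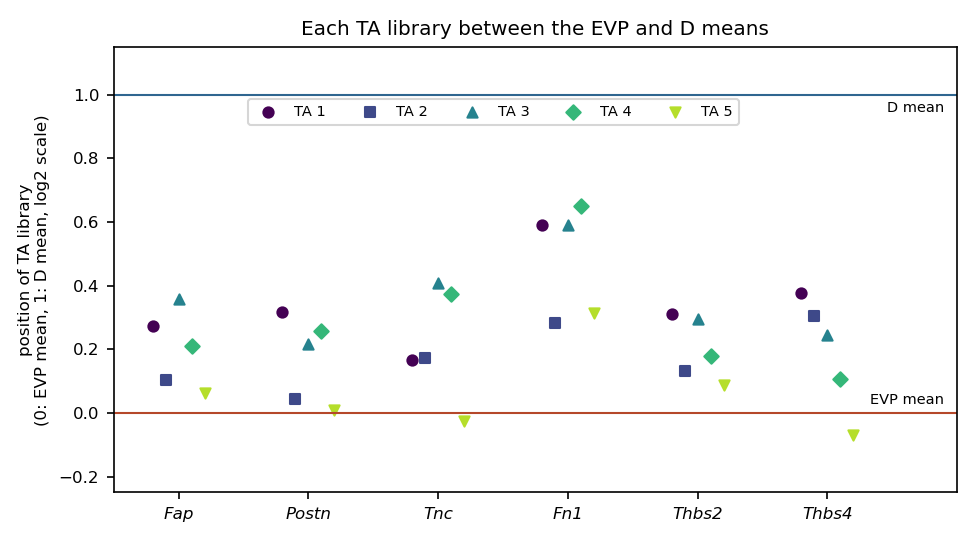
Position of each of the 5 TA libraries (points, by library number) between the EVP mean (0) and the D mean (1) on the log2 scale (vertical axis) for the 6 genes that were higher in EVP and TA than in D. Means run from 0.168 for Postn to 0.220 for Tnc and reach 0.486 for Fn1, and TA 5 lies lowest for each gene but Fn1.

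Levels of different genes were compared per kilobase of exon, with each base in an exon of any annotated transcript counted once. This length was 8702 bases for Postn, with 9 transcripts, and 3289 for Thbs4, with 2. It can exceed the length of the transcripts present, so the order between genes depends on this choice of length. Sparc was highest in each population, with 32006 ± 6912 normalized counts per kb in EVP, 23053 ± 8653 in TA and 27759 ± 9605 in D (SD, n = 5 each), and Cyr61 was next, with 11374 ± 6516, 6407 ± 1885 and 7794 ± 837. In EVP there followed Fn1 (6068 ± 2234 per kb), Postn (4959.7 ± 1834), Thbs2 (4229.5 ± 1019), Ctgf (2511 ± 908), Tnc (2271 ± 819) and Thbs1 (1779.6 ± 872), a series in which neighbors lay within their SDs, except that Thbs2 and Ctgf differed by more than either SD. Fap (435 ± 149.6 per kb) and Thbs4 (434 ± 403) were lowest in EVP and did not differ beyond their spread.

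In TA the middle of the order was crowded, from Ctgf (3185 ± 1787 per kb) over Postn (2362 ± 1620.1), Fn1 (2229 ± 810.3), Thbs2 (1506 ± 776) and Thbs1 (1386 ± 588) to Tnc (1292 ± 634), with all these neighbors within their spread, and ended with Fap (166 ± 98.5) and Thbs4 (155 ± 189.8). In D the order was spread out. Ctgf (3556 ± 1076 per kb) and Thbs1 (2148 ± 549) followed Cyr61, then Fn1 (779 ± 261), Tnc (181 ± 168), Postn (24.9 ± 4.24), Thbs2 (19.4 ± 13.7), Fap (4.39 ± 4.45) and Thbs4 (0.463 ± 0.913). Postn and Thbs2 did not differ beyond their spread in D, nor did Fap and Thbs4. The span between Sparc and the least abundant member was wider in D than in EVP. Together the 10 genes took 1.33% to 2.40% of all reads on genes in EVP, 0.774% to 1.81% in TA and 0.775% to 1.32% in D. The lowest EVP share was just above the highest D share, and the TA range overlapped with both.

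**Figure D5:**
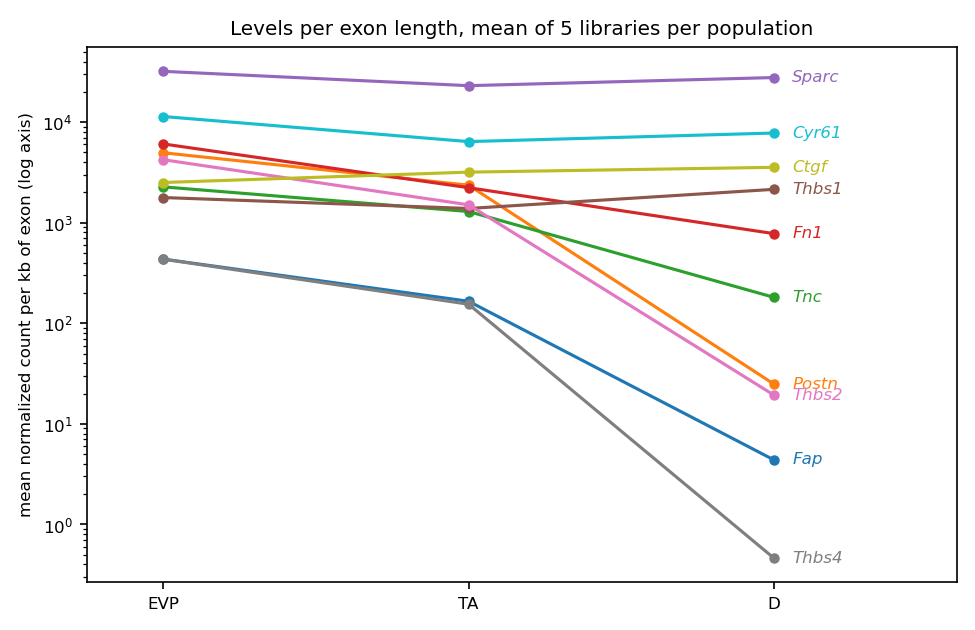
Mean normalized count per kb of exon (vertical log axis) of each of the 10 genes in EVP, TA and D, with 1 line per gene. Lines of Sparc, Cyr61, Ctgf and Thbs1 are nearly level, while Postn falls from 4959.7 in EVP to 24.9 in D and Thbs4 from 434 to 0.463.

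Relatives of the members were counted from a list that was chosen with earlier results of these data known, as were all lists below. Of 18 tested relatives, 12 were higher in EVP than in D, 1 was lower and 5 were not called, with a median log2 fold change of 3.84. The lowest adjusted p-values were those of the CCN gene Nov (5068 ± 3666 against 28.0 ± 15.8 normalized counts, log2 fold change 7.39), the SPARC relative Smoc2 (2758 ± 1677 against 8.37 ± 5.14, 8.45), the matricellular osteopontin gene Spp1 (50966 ± 27722 against 2010.3 ± 290.2, 4.48) and the thrombospondin Thbs3 (4563 ± 1376 against 11.4 ± 7.74, 9.01). Sparcl1, the closest relative of Sparc, ran the other way, with 2806 ± 1794 in EVP, 13893 ± 6578 in TA and 35454 ± 6057 in D (SD, n = 5 each). It was lower in EVP than in D by a log2 fold change of -3.87 and than in TA by -2.40, and lower in TA than in D by -1.47 (limma adjusted p = 6.28e-07, 0.00260 and 0.0132). Without the 3 libraries numbered 1 its difference from TA was -2.03 and did not pass (limma adjusted p = 0.0630). In TA against D 11 relatives were higher, 1 lower and 6 not called, and in EVP against TA 2 were higher (Nov, and Fstl1, named after its value was seen), 1 lower and 15 not called, and without the 3 libraries numbered 1 only Fstl1 was called there (1.63, limma adjusted p = 0.0445).

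Receptors of matricellular proteins divided between the populations. Of 16 tested, 7 were higher in EVP than in D, 6 were lower and 3 were not called, with a median of 0.52. Lrp1, an endocytic receptor that takes up thrombospondins (43.4-fold), Sdc4, a heparan sulfate proteoglycan that binds fibronectin (25.6-fold), and the collagen receptor Ddr2 (57.8-fold) were higher in EVP. Itga6, a laminin-binding integrin chain, averaged 202 ± 24.5 normalized counts in the EVP libraries against 5738 ± 1143 in the D libraries (SD, n = 5 each), a log2 fold change of -4.80 (limma adjusted p = 1.87e-09). In TA against D 6 receptors were higher (Lrp1, Sdc4, Ddr2, Cacna2d1, Itgb5 and Itga8), 7 were lower and 3 were not called. In EVP against TA Lrp1 was higher (3.24-fold), 3 were lower, namely Itga6 and, named after their values were seen, Cd36 and Stab1, and 12 were not called. Without the 3 libraries numbered 1 the calls of Cd36 and Stab1 were lost (limma adjusted p = 0.0861 and 0.0947). Their log2 fold changes were then -2.49 and -2.03, against -2.83 and -2.16 with all libraries.

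YAP and TEAD target genes other than Ctgf and Cyr61 also went both ways. Of 19 tested, 9 were higher in EVP than in D, 5 were lower and 5 were not called, with a median of 1.45. Ccdc80, a matrix protein (45682 ± 15529 against 166 ± 85.8 normalized counts), Rbms3, an RNA-binding protein (2346 ± 277 against 72.0 ± 19.4), the receptor kinase Axl (11948 ± 3678 against 222 ± 27.8) and the tissue factor gene F3 (3646 ± 2189 against 80.1 ± 38.4) led those higher in EVP (SD, n = 5 each). Igfbp3 had 3483 ± 1577 in EVP and 127154 ± 49142 in D, and Crim1, Nt5e, Asap1 and Ptpn14 were the others that were lower in EVP, of which Ptpn14 was named after its value was seen. In TA against D 5 were higher, 4 lower (Asap1, Crim1, Nt5e and Igfbp3) and 10 not called. In EVP against TA Ccdc80, Rbms3, Axl and, named after its value was seen, Amotl2 were higher, Crim1 and Igfbp3 lower and 13 not called, and without the 3 libraries numbered 1 none of the 19 was called there by limma, with 8 higher and 2 lower at an unadjusted p under 0.05.

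Of 15 components of the Hippo pathway, the kinase cascade that holds YAP and TAZ out of the nucleus, 2 were higher in EVP than in D, 4 were lower and 9 were not called, and the median was 0.12. The TEAD cofactor Vgll3 (4622 ± 1484 against 51.5 ± 69.2 normalized counts) and Tead3 (124 ± 22.2 against 3.37 ± 5.39) were higher in EVP. The TAZ gene Wwtr1 (629 ± 66.6 against 2415 ± 517) and Tead4 (11.4 ± 8.36 against 183 ± 19.5) were lower (SD, n = 5 each). Vgll4 and Nf2, named after their values were seen, were also lower. In TA against D 2 were higher, Wwtr1 was lower and 12 were not called, and in EVP against TA Tead4 was lower and 14 were not called. The call of Tead4 was lost without the 3 libraries numbered 1 (limma adjusted p = 0.0866). Its log2 fold change was then -3.43, against -3.26 with all libraries.

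Genes of TGF-beta signaling and of myofibroblasts moved largely with the 6 members. Of 18 tested, 14 were higher in EVP than in D, Tgfb1 was lower (36.1 ± 19.7 against 146 ± 66.9 normalized counts, named after its value was seen) and 3 were not called, with a median of 3.63. Pdpn, a surface glycoprotein of activated fibroblasts and lymphatics (84.7-fold), Lrrc15, a marker of TGF-beta activated fibroblasts (505-fold), Cthrc1, a secreted repair protein (134-fold), and the collagen crosslinking enzyme Lox (772-fold) had the lowest adjusted p-values. In TA against D 13 were higher, none was lower and 5 were not called, and in EVP against TA 4 were higher, none was lower and 14 were not called. Without the 3 libraries numbered 1 none of the 18 was called in EVP against TA by limma, with 5 higher and none lower at an unadjusted p under 0.05.

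Of 12 early response genes, which are induced by serum and by handling of cells and include AP-1 factors, 7 were higher in EVP than in D and 5 were not called, with a median of 1.60. Fos (24814 ± 14199.6 against 3283 ± 1092 normalized counts), Zfp36 (5.48-fold), Egr1 (7.99-fold) and Junb (3.26-fold) led. Of the same 12, 6 were higher in TA than in D. In EVP against TA 0 of 12 were called by limma and edgeR and 2 by DESeq2, while 5 were higher in EVP at an unadjusted p under 0.05 in limma. Cyr61, which is itself induced by serum, stayed within the D range in 3 of 5 EVP libraries.

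For each member the genes most like it were taken from all tested genes by Pearson correlation of log2(normalized count + 1) over the 15 libraries. The libraries form 3 populations, so the pooled value mostly reflects the difference between populations, and the correlation of deviations from population means follows in each sentence. Postn was most like the collagen gene Col5a2 (0.996, 0.92) and the elastic fiber gene Efemp2 (0.99, 0.88). Thbs2 was most like Islr (0.99, 0.92) and Ccdc80 (0.99, 0.86). Fap was most like the BMP antagonist Chrdl1 (0.97, 0.81) and the latent TGF-beta binding gene Ltbp1 (0.97, 0.80), and Thbs4 most like Obsl1 (0.98, 0.75) and the collagen gene Col6a1 (0.98, 0.74). These partners were all lower in D, as their members were.

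Tnc was most like Usp13 (0.98, 0.88) and Epb41l3 (0.98, 0.84) and Fn1 most like Nnmt (0.97, 0.79) and Tsku (0.96, 0.68). Sparc was most like Fkbp10 (0.89, 0.89), a chaperone and prolyl isomerase of collagen, and Tgfb1i1 (0.88, 0.85). Ctgf was most like Gm2223 (0.87, 0.87) and nucleolin, Ncl (0.87, 0.86), and Cyr61 most like Leng9 (0.85, 0.82) and Itih5 (0.83, 0.76). Thbs1 was most like AC153937.2 (0.91, 0.90) and Gm31763 (0.88, 0.85), transcripts with population means of at most 21.3 normalized counts. Among the members themselves, Postn and Thbs2 were most alike (0.97, 0.28) and Sparc and Ctgf had the highest correlation of deviations (0.75).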

How the data were processed

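RNA sequencing of 15 libraries of sorted mouse cells, 5 each of EVP, TA and D, was used. Per the labels and the study's methods, the authors made libraries from total RNA with a modified Smart-Seq2 protocol and Nextera XT, which does not mark strand, mapped reads to mm10 with STAR 2.5.3a, counted them per gene of Ensembl release 91 with HTSeq-count 0.6.1 and normalized them with DESeq2 1.10.1. The deposited values are a normalized signal, counts divided by a size factor per library. Deposited tables of the authors' own fold changes and p-values were not used here.

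Whole reads were recovered from the deposited values: 100.0% of values above 0 were whole reads within 0.01 reads. Populations were compared with limma 3.58.1 (R 4.3.3) with a trended prior on log2(normalized count + 1), for 25549 genes whose mean reached 5, in 1 fit of all 15 libraries, two-sided, with Benjamini-Hochberg adjustment and a threshold of 0.05. Fold changes on that scale understate changes of low genes. Ratios of gene pairs were compared with exact permutation tests (Python 3.11.15 with numpy 2.4.6). Alternatives were edgeR 4.0.16 and DESeq2 1.42.0 on recovered reads, other scalings, filters and added counts, a replicate block and left-out libraries. The procedures were tested on simulated data. Intervals of log2 fold changes come from the spread between libraries in the limma fit, and the Poisson interval of a read count (scipy 1.17.1) covers counting error only.

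Opposite-strand genes overlap exons of Tnc, Fn1, Thbs1 and Ctgf, and without strand their reads cannot be told apart. Those genes had at most 140.4 normalized counts. How reads over shared exons were counted is not stated, so this value does not bound them. All members are named whatever their values. Of each list at most the 4 genes with the lowest adjusted p in EVP against D are named, plus genes called against most of their list in another comparison, and for each member the 2 most correlated genes. Lats2 shares its symbol with another gene and was left out. Members and lists were chosen with earlier results of these data known. Exon lengths and coordinates come from GENCODE M21 (GRCm38), and promoters from RefSeq.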

Additional observations from a re-analysis of the deposited data

Results flagged for a closer look

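A highest or lowest library far from the other 4 of its population was found in 5 of 36 groups of 5 libraries, 30 of normalized counts and 6 of ratios. The cut-off is passed by about 1 in 20 groups of normally distributed values. Counts near 0 are not so distributed, so 5 of 36 cannot be set against that rate. Tnc was 3723 normalized counts in D library 1 against 1021 in the nearest D library. Thbs4 was 1586 in TA library 5 against 515 in the nearest TA library. Thbs4 was also 6.86 in D library 1 against 0.751 in the nearest, both at the level of a few reads. Cyr61 was 45951 in EVP library 4 against 22081 in the nearest EVP library. The log2 ratio of Ctgf to Cyr61 was -2.16 in TA library 4 against -0.51 in the nearest TA library, and without this library EVP and TA differed by -1.33 in that ratio (exact permutation, adjusted p = 0.0317). D library 1 had 2390.2 normalized counts of summed keratinocyte markers against at most 434 in the other D libraries, and its part in the Tnc value was not tested.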

How the results depend on the processing

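EVP against D gave 6 called members under all 29 alternatives, and TA against D gave 6 or 7. EVP against TA, with 1 called member, gave 2 with DESeq2 and with EVP and TA libraries alone, 0 without the 3 libraries numbered 1, and 1 to 3 over left-out libraries. A fit with a replicate block gave 3, adding Thbs2 and Postn (limma adjusted p = 0.0449 and 0.0354), and called Thbs1 lower in TA than in D (0.0237). Deviations from population means were correlated between libraries. In each comparison, numbers 1, 2, 4 and 5 correlated more with their own number than with any other (EVP and TA number 1, r = 0.60 against at most 0.26). The margin was small for number 2 (EVP and D, 0.06 against 0.03), number 4 (TA and D, 0.36 against 0.35) and number 5 (EVP and D, 0.46 against 0.40). Number 3 did not (EVP and TA, r = -0.14 against at most 0.36). What a number shares is not stated in the labels. In the block the Thbs1 to Thbs2 ratio kept its differences of -8.45 (EVP and D) and -7.15 (TA and D) at an adjusted exact p of 0.075, a design too small to pass. Without the libraries numbered 1 these differences were -8.77 and -7.52, with the ratio of every D library still above that of every EVP and TA library. They did not pass after adjustment over the 6 ratio comparisons (adjusted exact permutation p = 0.0571). The unadjusted exact p was the smallest that 4 against 4 libraries allow. Left-out libraries moved that ratio's difference over -8.85 to -8.07 (EVP and D), -7.59 to -6.77 (TA and D) and -1.69 to -0.86 (EVP and TA, past the threshold without EVP library 1). The Ctgf to Cyr61 difference ran from -1.17 to -0.58 in EVP against D (the last without EVP library 4), from -1.33 to -0.61 in EVP against TA and from -0.14 to 0.41 in TA against D, where it was -0.064 without the libraries numbered 1. Sparc in EVP against D turned to -0.39 under quantile normalization (adjusted p = 0.437), and Ctgf in EVP against TA, -0.21 with all libraries, ran from -0.51 to 0.047, its value without TA library 1. Causes were not tested. Over all genes edgeR on recovered reads called 3849, 663 and 2570 genes in EVP against D, EVP against TA and TA against D, limma 4859, 893 and 3199, and DESeq2 5546, 1900 and 4202. Array weights raised the calls to 7609 in EVP against D and 5054 in TA against D. Without the 3 libraries numbered 1, 104 genes were called in EVP against TA. A term for replicates 4 and 5, added after seeing the data, moved no member's call. Depth limits Thbs4 and Fap in D.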
